A study of Homo sapiens with 18 samples.

Results

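RHOXF1-transfected HEK293 cells were compared directly with RHOXF2-transfected HEK293 cells 48 h after transfection. The member arrays were taken from the sample labels by vector and time and not from any measured value. Earlier results of these data were known when these arrays were chosen. They are 6 of the 18 arrays of the series, and the comparison ran over the 21214 of 33297 transcript clusters on the array that carried a gene symbol. HEK293 is an established human embryonic kidney cell line. All arrays hold RNA of cells transfected transiently with Lipofectamine 2000, a lipid reagent. RHOXF1 arrays received a RHOXF1 expression vector and RHOXF2 arrays a RHOXF2 expression vector. Control arrays, with an empty control vector, are given beside them where a level needs a background. Each of these groups has 3 arrays at 24 h and 3 at 48 h, described by the submitters as biological triplicates. The transfection protocol also names pCMV6-AC-GFP, a GFP vector, and does not state whether the RHOXF1 and RHOXF2 plasmids encode GFP. RNA came from whole cultures, so fewer cells making a transcript and less transcript per cell cannot be told apart.

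RHOXF1 and RHOXF2 belong to the reproductive homeobox genes of the X chromosome, which encode homeodomain transcription factors known mainly from the testis, the ovary and germ cells. RHOXF2B is a near-identical copy of RHOXF2. HSP70 proteins, with their DNAJ, HSP110 and BAG partners, hold and refold unfolded protein in the cytosol. When unfolded protein builds up, heat shock factor 1 binds heat shock elements, inverted repeats of the letters GAA, and the inducible HSP70 genes HSPA1A, HSPA1B and HSPA6 are transcribed, while HSPA8 encodes the constitutive form.

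Values are log2 RMA levels, and each difference is RHOXF1 minus RHOXF2, so a negative one means a lower level in RHOXF1 cells. Of 21214 clusters, 11 passed at an adjusted p under 0.05 (limma, Benjamini-Hochberg over all 21214), which is 0.0519% of those tested. They carry 6 names. RHOXF1 alone was higher in RHOXF1 cells (0.00471% of clusters), and 10 clusters (0.0471%) were lower: a pair of identical clusters of RHOXF2 with RHOXF2B, ANKRD1, GCM1, KRTAP19-5 and 5 clusters shared by HSPA1A and HSPA1B. Outside the transfected genes, every cluster that passed was therefore higher in RHOXF2 cells. An unadjusted p under 0.05 was reached by 747 clusters (3.52%), 328 higher (1.55%) and 419 lower (1.98%), where 1061 would be expected by chance. The median difference over all clusters was -0.002, with 51.0% of them lower in RHOXF1 cells.

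**Figure D1:**
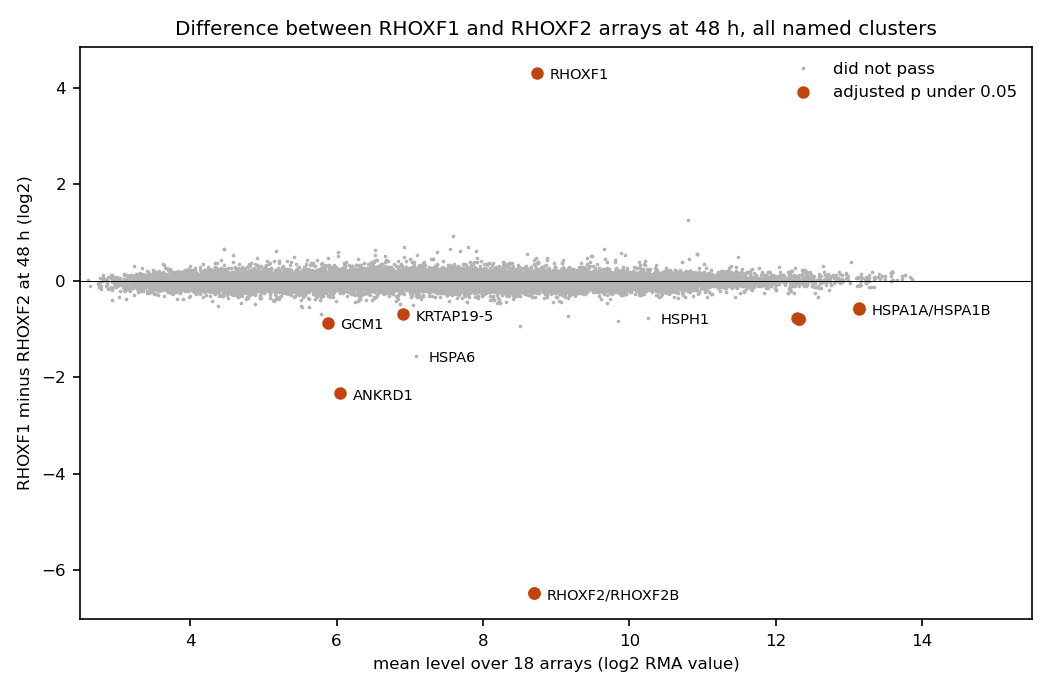
Difference between RHOXF1 and RHOXF2 arrays at 48 h (log2, vertical axis) against the mean level over 18 arrays (log2 RMA value, horizontal axis), 1 point per named cluster. The 11 clusters that passed are in orange: RHOXF1 at 4.30 above the line, and below it RHOXF2 with RHOXF2B at -6.48, ANKRD1 at -2.34, GCM1, KRTAP19-5 and HSPA1A with HSPA1B.

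The sequences before the starts of HSPA1A, ANKRD1 and GCM1, which passed, are shown because heat shock genes were among the names that passed. HSPA6 is shown as the inducible relative with the largest difference among the chaperones and HSPA8 as the constitutive one. Each line holds the 250 bases before the annotated start, 5′ to 3′ on the gene's own strand, from RefSeq on build GRCh38.p14. The sequences cover chr6:31815293-31815542 (plus strand) for HSPA1A, chr1:161524290-161524539 (plus) for HSPA6, chr11:123062137-123062386 (minus) for HSPA8, chr10:90921088-90921337 (minus) for ANKRD1 and chr6:53148842-53149091 (minus) for GCM1. Capitals mark matches to the heat shock letters GAANNTTC or TTCNNGAA, which read the same on both strands and can overlap, and in ANKRD1 also to GGAATG, the letters bound by TEAD factors, searched on both strands.
HSPA1A: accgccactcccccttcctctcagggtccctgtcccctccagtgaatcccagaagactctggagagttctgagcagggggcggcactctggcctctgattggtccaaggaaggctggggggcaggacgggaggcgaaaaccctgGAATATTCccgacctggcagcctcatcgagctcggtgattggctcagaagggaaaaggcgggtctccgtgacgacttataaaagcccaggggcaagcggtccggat
HSPA6: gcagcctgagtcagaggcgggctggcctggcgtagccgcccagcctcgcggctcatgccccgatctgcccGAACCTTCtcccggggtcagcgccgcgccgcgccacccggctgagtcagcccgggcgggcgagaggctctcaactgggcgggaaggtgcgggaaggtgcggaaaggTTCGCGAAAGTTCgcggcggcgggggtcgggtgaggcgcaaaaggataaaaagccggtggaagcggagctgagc
HSPA8: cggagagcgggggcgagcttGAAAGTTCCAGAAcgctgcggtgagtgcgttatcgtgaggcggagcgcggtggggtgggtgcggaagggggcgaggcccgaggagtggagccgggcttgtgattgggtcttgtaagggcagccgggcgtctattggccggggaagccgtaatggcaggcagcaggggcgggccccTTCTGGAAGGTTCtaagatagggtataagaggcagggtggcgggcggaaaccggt
ANKRD1: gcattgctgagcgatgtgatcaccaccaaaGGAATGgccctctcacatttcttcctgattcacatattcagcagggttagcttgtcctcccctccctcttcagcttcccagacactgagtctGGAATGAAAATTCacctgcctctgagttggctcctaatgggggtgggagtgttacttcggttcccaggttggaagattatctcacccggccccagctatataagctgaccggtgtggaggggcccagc
GCM1: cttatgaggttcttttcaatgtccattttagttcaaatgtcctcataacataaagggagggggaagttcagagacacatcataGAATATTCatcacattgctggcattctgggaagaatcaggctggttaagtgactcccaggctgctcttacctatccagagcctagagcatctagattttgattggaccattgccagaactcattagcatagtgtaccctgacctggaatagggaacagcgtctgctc
HSPA1A has 1 heat shock match, HSPA6 has 3 and HSPA8 has 4. ANKRD1 has 1 such match and 2 matches to GGAATG, and GCM1 has 1 heat shock match. The start of KRTAP19-5 holds none of these letters. Among 35116 RefSeq starts of the same length, 11.6% hold either heat shock form and 11.9% hold GGAATG. HSPA1B has 1 heat shock match, HSPB8 has 1 and CHORDC1 has 6, while HSPH1 and BAG3 have 0 in this window. DNAJB1 has 0, 2 and 0 heat shock matches at its 3 starts, and STIP1 has 0. The homeodomain core letters TAATTA were searched too and are held by 4.3% of the RefSeq starts. They have 0 matches in the sequences shown and in KRTAP19-5, and 1 in RFPL4A. A match is a run of letters only, and HSPA8, with 4 heat shock matches, did not pass.

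The transfected genes read as the labels name them. RHOXF1 stood at 12.29, 12.27 and 12.25 in RHOXF1 arrays, against 7.75, 7.03 and 9.12 in RHOXF2 arrays and 5.67, 6.20 and 6.51 in control arrays. The RHOXF1 difference was 4.30 ± 0.34 (SE, n = 3 against 3, limma adjusted p = 1.338e-06), and the groups were far apart. RHOXF2 arrays still lay above control arrays in the RHOXF1 cluster, by 1.84, which passed (limma adjusted p = 0.0462). The array labelled RHOXF2 replicate 3 had the highest value among them. At 24 h the RHOXF1 cluster averaged 7.48 in RHOXF2 arrays and 6.34 in control arrays. The RHOXF2 cluster, which does not separate RHOXF2 from RHOXF2B, read 6.09, 6.98 and 6.25 in RHOXF1 arrays, against 12.95, 12.96 and 12.85 in RHOXF2 arrays and 6.47, 6.44 and 6.95 in control arrays. Its difference was -6.48 ± 0.23 (adjusted p = 1.303e-12), and RHOXF1 and control arrays overlapped. The levels of different clusters cannot be set against each other on these arrays, so whether the vectors gave equal amounts of RHOXF1 and RHOXF2 RNA was not tested.

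ANKRD1, an ankyrin repeat protein of muscle that acts as a transcriptional co-regulator and is a known target of YAP and TEAD, had the largest difference outside the transfected genes. Its levels were 5.43, 5.72 and 5.57 in RHOXF1 arrays, against 7.90, 8.45 and 7.39 in RHOXF2 arrays and 5.42, 5.41 and 5.60 in control arrays. The lowest RHOXF2 array was thus well above the highest RHOXF1 array, while RHOXF1 and control arrays overlapped. ANKRD1 was 5.06-fold lower in RHOXF1 cells (log2 difference -2.34 ± 0.20 SE, limma adjusted p = 2.707e-06, 95% interval -2.757 to -1.922), and it passed under every alternative in which it was tested. Set against the control arrays that both groups share, ANKRD1 differed by 0.09 in RHOXF1 cells and by 2.43 in RHOXF2 cells.

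Of 23 listed YAP and TEAD targets measured, 15 were lower in RHOXF1 cells (65.2%, against 51.0% of all clusters), and ANKRD1 was the 1 that passed. Their median was -0.023, or -0.003 without RHOXF2 replicate 3 and 0.003, with 11 of 23 lower, without RHOXF1 replicate 2. Among the 8 that were higher, named after their values were seen, the matricellular genes CCN1 and CCN2, textbook targets of the same pathway, stood at 0.21 and 0.27. TGFB2, a TGF-beta ligand, stood at 0.39 and VGLL3, a TEAD cofactor, at 0.38, and neither passed (limma adjusted p = 0.998 for each). In each of them all RHOXF1 arrays lay above all RHOXF2 arrays. Of the 23, 3 lay above in this way and 1 below, against 4.78% and 4.46% of all clusters. An unadjusted p under 0.05 was reached by 3 higher (13.04%) and 1 lower (4.35%), against 1.55% and 1.98% of all clusters.

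GCM1, the transcription factor that drives trophoblast fusion in the placenta, read 5.39, 5.67 and 5.58 in RHOXF1 arrays, against 6.50, 6.49 and 6.28 in RHOXF2 arrays and 6.01, 5.73 and 5.80 in control arrays. RHOXF1 arrays were all below RHOXF2 arrays, and control arrays lay between them. The difference was -0.87 ± 0.12 (1.83-fold lower, limma adjusted p = 0.00467). It was made up of -0.30 from control in RHOXF1 cells (adjusted p = 0.654) and 0.57 from control in RHOXF2 cells (adjusted p = 0.0959), neither of which passed by itself. Without RHOXF2 replicate 2 the direct difference was -0.84 and missed the threshold (adjusted p = 0.0554). In those comparisons with control, 0.00943% of clusters passed for RHOXF1 and 0.0943% for RHOXF2. Among 29 trophoblast genes measured, 22 were lower in RHOXF1 cells (75.9%, against 51.0% of all clusters, median -0.098). Of the 29, 6 lay above the median level, and in the dimmest of 5 level bins 56.3% of clusters were lower. GCM1 was the 1 that passed, and 2 reached an unadjusted p under 0.05 in the lower direction (6.9%, against 1.98% of all clusters). The list was chosen with earlier results of these data known, so its direction is a description. The trophoblast median was -0.058 without RHOXF2 replicate 3, -0.057 without RHOXF2 replicate 2 and -0.060 without RHOXF1 replicate 1. The galectin gene LGALS13 was the other at an unadjusted p under 0.05, at -0.28, at the dim end of the array. GCM2, the parathyroid relative of GCM1, stood at 0.18.

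KRTAP19-5, a keratin-associated protein gene of hair, read 6.75, 6.82 and 6.67 in RHOXF1 arrays, against 7.39, 7.56 and 7.40 in RHOXF2 arrays and 6.93, 6.56 and 6.98 in control arrays. The RHOXF2 arrays stood apart above both other groups. The difference was -0.70 ± 0.11 (1.63-fold lower, limma adjusted p = 0.0114). It was the 1 member that passed among 68 keratin-associated protein clusters, whose median was 0.003 with 33 lower. The call was lost without any 1 of the RHOXF1 arrays or without RHOXF2 replicate 2, with an adjusted p of up to 0.148.

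**Figure D2:**
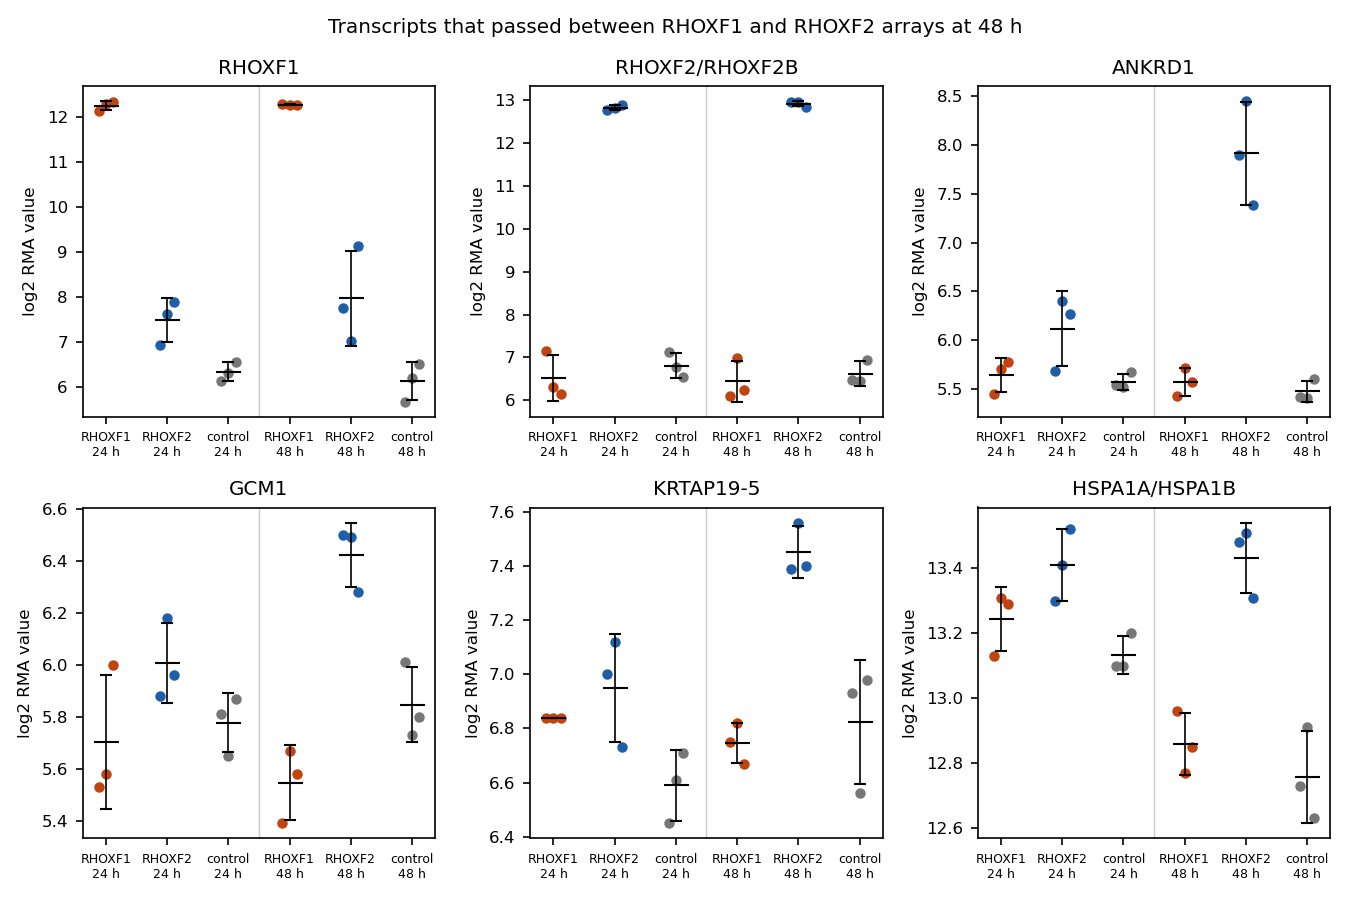
Log2 RMA values on each array (points) with group mean and SD (bars, n = 3) for the names that passed at 48 h, with the 24 h arrays at the left of each panel and the vertical axis of each panel on its own range. ANKRD1, GCM1, KRTAP19-5 and HSPA1A with HSPA1B are lower in all RHOXF1 arrays than in all RHOXF2 arrays at 48 h. The gap at 24 h is smaller in each, but they were picked by the 48 h comparison and none passed in the difference between the times.

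HSPA1A and HSPA1B, which encode the same inducible HSP70 protein, share 5 clusters that the array cannot assign to 1 of them. The brightest read 12.96, 12.77 and 12.85 in RHOXF1 arrays, against 13.48, 13.51 and 13.31 in RHOXF2 arrays and 12.73, 12.91 and 12.63 in control arrays. RHOXF1 and control arrays overlapped, and the RHOXF2 arrays lay above both. All 5 clusters passed, with differences of -0.58 to -0.79 and an adjusted p of 0.0114 each, but they are repeated readings of the same transcripts, and 2 of them hold identical values. The call was lost for all 5 without RHOXF1 replicate 2 or 3 or RHOXF2 replicate 2, and for the 2 brightest without RHOXF2 replicate 1. The differences then lay between -0.53 and -0.80.

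HSPA6, the strictly inducible HSP70 gene, had a larger difference with more spread. It read 6.87, 6.90 and 6.81 in RHOXF1 arrays, against 8.70, 9.12 and 7.43 in RHOXF2 arrays and 6.56, 6.45 and 6.28 in control arrays. All RHOXF1 arrays were below all RHOXF2 arrays and above all control arrays. The HSPA6 difference was -1.55 ± 0.30 (2.93-fold lower) and did not pass (adjusted p = 0.0937); without RHOXF2 replicate 3, the lowest of its group, it was -2.05 and passed (adjusted p = 0.000119).

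HSPH1, an HSP110 nucleotide exchange factor for HSP70, read 9.68, 9.94 and 9.51 in RHOXF1 arrays, against 10.24, 10.73 and 10.47 in RHOXF2 arrays and 9.46, 9.18 and 9.45 in control arrays. RHOXF1 arrays lay between the other groups, without overlap. The HSPH1 difference was -0.77 ± 0.15 and did not pass (adjusted p = 0.135). BAG3, a co-chaperone that couples HSP70 to autophagy, stood at -0.44 (adjusted p = 0.889); its arrays read 8.87, 8.84 and 8.82 with RHOXF1, against 8.98, 9.40 and 9.45 with RHOXF2 and 8.75, 8.67 and 8.70 with control.

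HSPA8 shows the other end of the family. Its levels were 13.14, 13.23 and 13.17 in RHOXF1 arrays, against 13.13, 13.22 and 13.21 in RHOXF2 arrays and 13.01, 12.82 and 13.03 in control arrays. The difference was -0.01, with a 95% interval of -0.157 to 0.144, which does not reach the difference of any of the 5 HSPA1A clusters. RHOXF1 and RHOXF2 arrays overlapped, and both lay above all control arrays, by 0.23 on average in each.

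Across the chaperones, the direction was mostly the same and the sizes small. Of 13 HSP70 and HSP110 genes, 11 were lower in RHOXF1 cells (median -0.093). Of 14 small heat shock protein and BAG genes, 10 were lower (median -0.111), among them HSPB8, a partner of BAG3, at -0.49 and the lens chaperone CRYAB at -0.49. Of 11 HSP90 genes and co-chaperones, 8 were lower (median -0.072), with STIP1, which links HSP70 to HSP90, at -0.33 and CHORDC1 at -0.32. HSP90AA1 itself, the inducible HSP90, stood at -0.06. Of 10 chaperonin subunits, 8 were lower (median -0.048), none by more than 0.14. Of 18 DNAJ genes, 9 were lower (median 0.003). Among these DNAJB1, the HSP40 partner of HSPA1A, stood at -0.46, with RHOXF1 arrays at 9.87, 10.20 and 9.71, RHOXF2 arrays at 10.34, 10.75 and 10.06 and control arrays at 8.95, 8.58 and 8.90. Both transfected groups lay above control in DNAJB1, and they overlapped with each other.

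Taking the 5 lists as 66 genes, 46 were lower (69.7%, median -0.059), against 51.0% and -0.002 over all clusters. Only the HSPA1A entry passed. An unadjusted p under 0.05 was reached by 10, all of them lower (15.15%, against 1.98% of all clusters in that direction). In 12 of the 66, all RHOXF1 arrays lay below all RHOXF2 arrays, which 4.46% of all clusters showed, and in 1, HSPA12B, all lay above, which 4.78% showed. Without RHOXF2 replicate 3 the count was 45 of 66 and the median -0.033. By list, the median was then -0.076 for HSP70 and HSP110 genes (9 of 13 lower), -0.034 for small heat shock protein and BAG genes (12 of 14), -0.029 for HSP90 genes and co-chaperones (8 of 11) and -0.024 for chaperonin subunits (7 of 10). The median of the DNAJ genes lay close to 0 and its sign was not stable. It was -0.021 after repeated quantile normalization, -0.035 after centring each array on its median and -0.010 with array weights. Leaving out any 1 array other than RHOXF1 replicate 3 also put it below 0, at -0.002 without RHOXF2 replicate 3 and at -0.047 without RHOXF1 replicate 1. The set was chosen with earlier results on these arrays known, so its direction is a description.

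**Figure D3:**
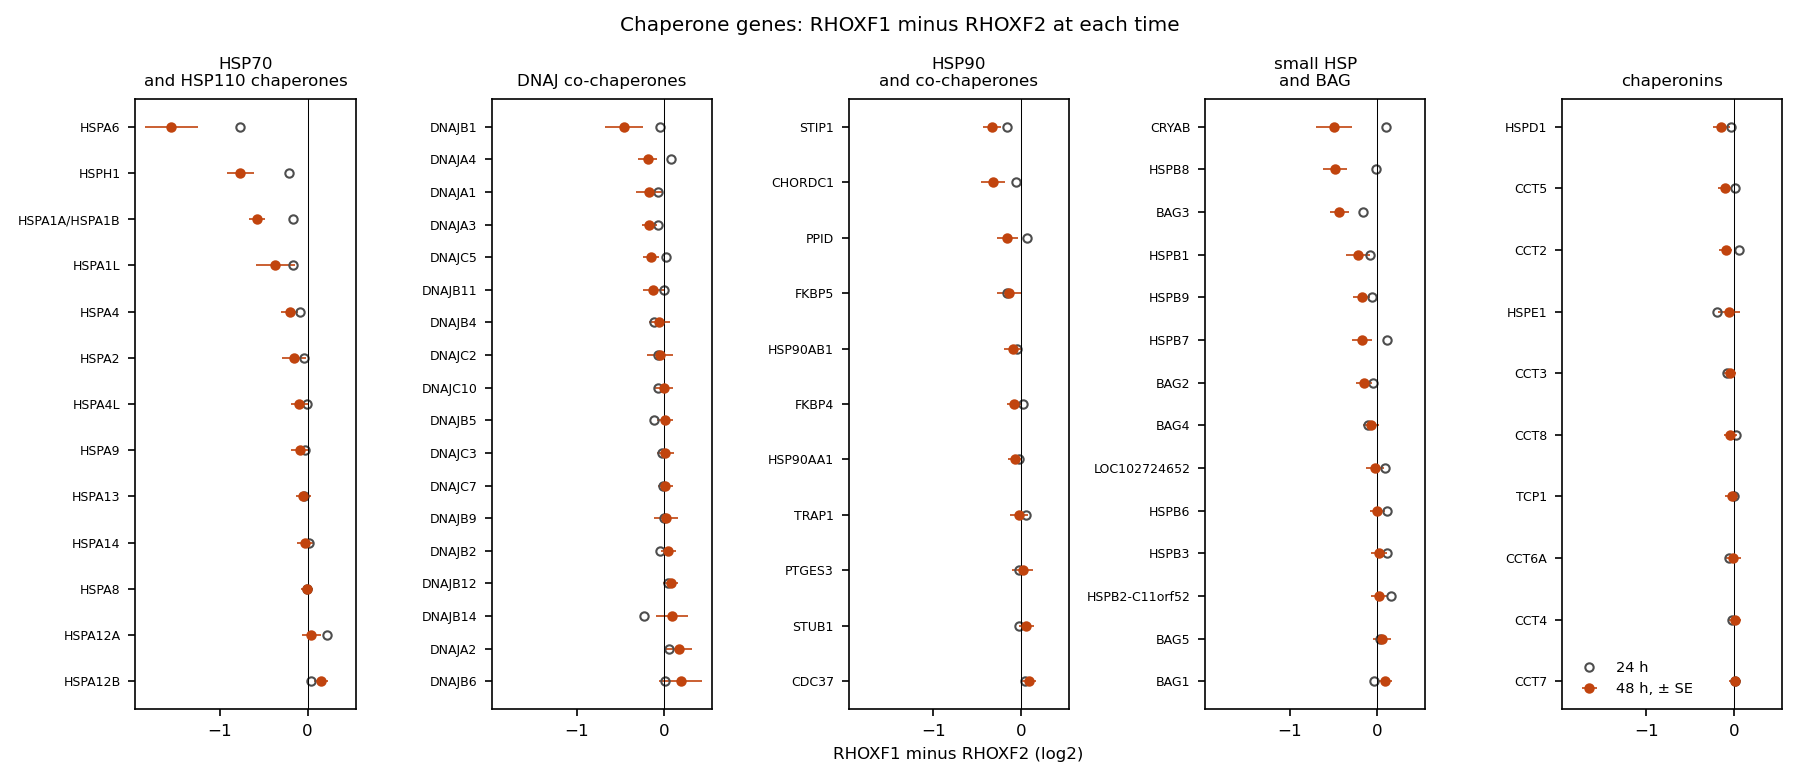
RHOXF1 minus RHOXF2 (log2) for every measured member of the 5 chaperone lists at 48 h (filled points with SE) and at 24 h (open circles), sorted by the 48 h value within each list. HSPA6, HSPH1, HSPA1A with HSPA1B, DNAJB1, CRYAB, HSPB8 and BAG3 lie farthest below 0 at 48 h, each with a 24 h value nearer 0. Most other members lie close to 0. The genes named here were picked by their 48 h values, and none passed in the difference between the times.

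The named genes were also set beside the control arrays. The naming rule took the 10 single-symbol genes with the smallest p in each direction, a gene's rank coming from its cluster with the smallest p. Counted on each gene's brightest cluster, all 10 lower ones read above control in RHOXF2 cells and 8 of them read above control in RHOXF1 cells, and in all 10 the RHOXF1 level was the nearer to control. On the clusters with the smallest p, the count above control in RHOXF1 cells was 6, since ELMO1 then stood at -0.11 and REXO1L1P at -0.02 from control. Both differences share the control arrays, and the order of p follows the direct comparison, so these counts describe the named genes only. RFPL4A, a ret finger protein-like gene, read 5.89, 5.88 and 5.68 in RHOXF1 arrays, against 6.32, 6.58 and 6.17 in RHOXF2 arrays and 5.39, 5.27 and 5.49 in control arrays. The 3 groups formed steps without overlap, and the RFPL4A difference of -0.54 ± 0.12 did not pass (adjusted p = 0.270). Its other cluster stood at -0.55.

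The remaining lower genes did not pass either. ELMO1, which activates the GTPase RAC in engulfment and migration, stood at -0.42. PGBD5, a domesticated transposase gene, stood at -0.40, and differed from control by 0.30 in RHOXF1 cells and by 0.70 in RHOXF2 cells. All 5 genes of the PGBD list were lower, at -0.03 to -0.40, but 3 of the 5 without RHOXF2 replicate 3. REXO1L1P, a pseudogene, stood at -0.50 in the cluster with the smallest p and at -0.30 in the brightest.

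On the higher side no gene besides RHOXF1 passed. Of the 9 others named, 7 had the RHOXF1 level nearer to control on the brightest cluster, a count that also describes these genes only. SGK1 and NPPC were the exceptions. SGK1, a kinase induced by serum and glucocorticoids, read 6.51, 6.57 and 6.43 in RHOXF1 arrays, against 6.11, 6.03 and 6.04 in RHOXF2 arrays and 6.06, 6.14 and 5.90 in control arrays. RHOXF1 arrays stood apart above both other groups, and the SGK1 difference was 0.45 ± 0.11 (adjusted p = 0.911). NPPC, the C-type natriuretic peptide, read 9.99, 10.16 and 10.16 in RHOXF1 arrays, against 9.77, 9.73 and 9.67 in RHOXF2 arrays and 9.84, 9.79 and 9.88 in control arrays. RHOXF1 arrays lay above both other groups here too, but RHOXF2 arrays lay below all control arrays. The means of RHOXF2 cells stood at -0.11 from control in NPPC and at 0.03 in SGK1. The NPPC difference between RHOXF1 and RHOXF2 cells was 0.38 ± 0.10 (adjusted p = 0.998). GPR155, a membrane protein of the lysosome, differed by 0.41, with RHOXF2 arrays at -0.43 from control and RHOXF1 arrays at -0.02. Its RHOXF2 arrays read 8.25, 8.11 and 7.69, where the last and lowest value is replicate 3. RHOXF1 arrays read 8.52, 8.34 and 8.41, and control arrays 8.36, 8.40 and 8.57.

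The other 6 were UBXN7-AS1, a second cluster of ZXDC, OR10K1, PDZD9, PLG, which encodes plasminogen, and CFAP144P1, at 0.29 to 0.43. In ZXDC the brightest cluster stood at 0.07 and in CFAP144P1 the dimmer cluster at -0.22, so their clusters disagree. PLK2, a polo-like kinase and the p53 target with the smallest p, differed by 0.70 ± 0.22 (adjusted p = 0.998), with 7.42, 7.67 and 7.20 in RHOXF1 arrays, against 6.83, 6.75 and 6.60 in RHOXF2 arrays and 6.64, 7.08 and 7.24 in control arrays. All RHOXF1 arrays lay above all RHOXF2 arrays in PLK2, and control arrays overlapped with both.

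**Figure D4:**
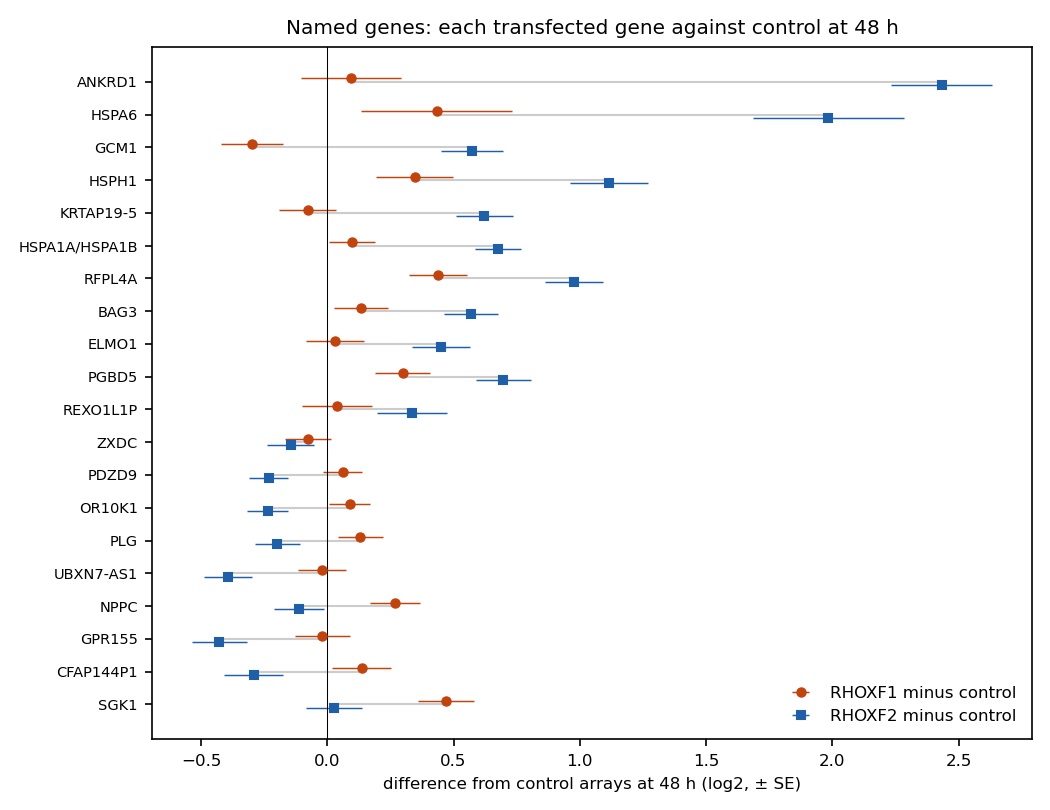
Difference from control arrays at 48 h (log2, horizontal axis, bars are SE) of RHOXF1 cells (orange circles) and RHOXF2 cells (blue squares) for the named genes other than the transfected ones, each gene by its brightest cluster. From ANKRD1 to REXO1L1P the RHOXF2 value lies to the right of the RHOXF1 value, and from ZXDC to SGK1 to its left, with both groups set against the same 3 control arrays.

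The same comparison at 24 h, in arrays that the 48 h comparison does not use, called 3 clusters (0.0141% of those tested), RHOXF1 and the RHOXF2 pair. Of the 10 lower genes named at 48 h, 8 also read lower at 24 h, and of the 9 higher ones other than RHOXF1, 6 also read higher, counted on each gene's brightest cluster. On the clusters with the smallest p the counts were 8 of 10 and 5 of 9, since that cluster of ZXDC stood at -0.16 at 24 h. Over all 21214 clusters, 9880 read lower and 11327 higher at 24 h. ANKRD1 stood at 5.45, 5.71 and 5.78 in RHOXF1 arrays at 24 h, against 5.68, 6.40 and 6.27 in RHOXF2 arrays, with overlap and a difference of -0.47 (adjusted p = 1.00). GCM1 differed by -0.31 and HSPA6 by -0.78 at 24 h, and KRTAP19-5 by -0.11, none of which passed.

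No cluster passed in the difference between the times (limma, 0 of 21214, with 373, or 1.76%, at an unadjusted p under 0.05). ANKRD1 came nearest, its gap changing by -1.87 ± 0.28 (adjusted p = 0.0581). It passed there with array weights, with the replicate number as a block, with each array centred on its median, with single-symbol clusters only, and without RHOXF2 replicate 3 of 48 h or RHOXF2 replicate 2 of 24 h. RFPL4A changed by -0.76, since RHOXF1 arrays at 24 h stood 0.22 above RHOXF2 arrays, and by -0.87 in its other cluster (adjusted p = 0.604).

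The HSPA1A cluster averaged 12.86 at 48 h and 13.24 at 24 h in RHOXF1 cells, 13.43 and 13.41 in RHOXF2 cells and 12.76 and 13.14 in control cells. RHOXF2 cells therefore held the level of 24 h, while RHOXF1 and control cells were lower at 48 h than at 24 h. The arrays carry the numbers 1 to 9 at 24 h and 16 to 24 at 48 h, so time and numbering cannot be told apart in such values. Whether the numbers follow the order of processing was not tested. FOSB, an immediate early gene, had one of the smallest p at 24 h, with a difference of 0.64, and stood at 0.32 at 48 h. SNAI1, a repressor of epithelial genes, stood at 0.49 at 24 h and 0.38 at 48 h, with no overlap between RHOXF1 and RHOXF2 arrays at either time, and passed at neither.

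Among the 6 arrays, RHOXF2 replicate 3 stood apart. On the first principal component, with 38.3% of the variance, it lay at 24.7 and the other 5 arrays between -10.8 and 5.0. Its median level was the lowest, at 6.68, and the median SD of a cluster was 0.089 in RHOXF1 arrays and 0.114 in RHOXF2 arrays, or 0.081 in RHOXF2 arrays without it. Levels within groups correlated across clusters at 0.9937 to 0.9975. Several gene lists moved with this array, and their values are given with and without it.

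Replication-dependent histone genes were lower in RHOXF1 cells in 37 of 51 cases, with a median of -0.113, but in 23 of 51 with a median of 0.009 without RHOXF2 replicate 3. The mean histone level was 7.87, 8.05 and 7.96 in RHOXF1 arrays, against 7.93, 7.99 and 8.28 in RHOXF2 arrays, where the last value is replicate 3. Genes of nucleolar ribosome biogenesis were lower in 30 of 35, with a median of -0.078, and in 13 of 35 with a median of 0.019 without it; POLR1A, the large subunit of RNA polymerase I, stood at -0.24. Their mean level was 9.87, 9.91 and 9.80 in RHOXF1 arrays, against 9.81, 9.87 and 10.16 in RHOXF2 arrays. No gene of either list passed.

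Small nucleolar RNAs, which guide the modification of ribosomal RNA, went the other way. C/D box RNAs were higher in RHOXF1 cells in 82 of 115, with a median of 0.090, and H/ACA box RNAs with scaRNAs in 59 of 77, with a median of 0.135. Without RHOXF2 replicate 3 the medians were 0.009 and 0.089, and without RHOXF1 replicate 2 they were 0.050 and 0.002. At 24 h both kinds stood on the other side of 0, with 86 of 115 C/D box RNAs lower in RHOXF1 cells (median -0.076) and 58 of 77 H/ACA box RNAs with scaRNAs lower (median -0.098). SNORA14B stood at 0.93 ± 0.38, with 8.10, 8.52 and 8.14 in RHOXF1 arrays, against 7.77, 7.11 and 7.08 in RHOXF2 arrays and 7.00, 8.23 and 8.31 in control arrays. Its RHOXF1 arrays lay above its RHOXF2 arrays, while 1 control array lay below all RHOXF2 arrays and the other 2 lay within the RHOXF1 range. SnoRNA host genes were higher in 12 of 16, with a median of 0.110, or 0.031 without RHOXF2 replicate 3, and at 24 h were lower in 13 of 16, with a median of -0.052.

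Lists that kept their direction without RHOXF2 replicate 3 held small differences. Cytosolic ribosomal protein genes were higher in 50 of 65 (median 0.060; 45 of 65 and 0.038 without it), with RPS24 at 0.19 and RPL22L1 at -0.28. Trophoblast genes were lower in 22 of 29 both with and without it. G1/S and replication genes were lower in 32 of 42 (27 of 42 without it), with CLSPN, a checkpoint adaptor, at -0.34, and G2/M genes in 33 of 47 (29 of 47). None of these genes passed at 48 h apart from GCM1. At 24 h, 36 of 65 cytosolic ribosomal protein genes were lower (median -0.008) and 23 of 47 G2/M genes (median 0.003). Trophoblast genes were then lower in 20 of 29 and G1/S and replication genes in 28 of 42.

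**Figure D5:**
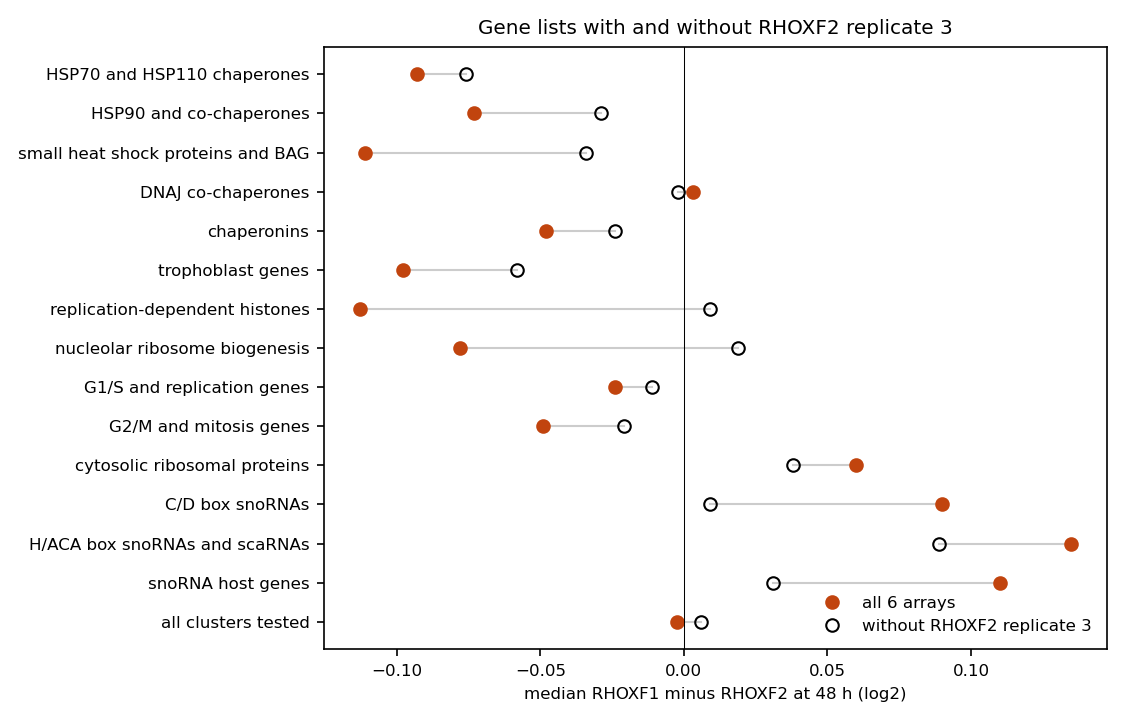
Median difference RHOXF1 minus RHOXF2 at 48 h (log2, horizontal axis) over the measured members of each list, from all 6 arrays (filled) and without RHOXF2 replicate 3 (open), with all clusters tested in the last row. Histones and nucleolar genes cross 0 and C/D box snoRNAs come close to it, while the HSP70, HSP90, small heat shock protein, chaperonin and trophoblast lists stay below 0.

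Germ cell genes, with which the RHOX family is linked, held no member that passed. Of 63 measured, 38 were lower in RHOXF1 cells (median -0.030), and the cancer-testis gene MAGEA1 had the smallest p, at -0.34. Of 26 Sertoli and Leydig cell genes the 1 that passed was RHOXF1 itself, with a median of 0.003. Of 32 ATF4 targets 17 were lower, with a median of -0.048, which was -0.129 without RHOXF1 replicate 3 and 0.127 without RHOXF1 replicate 2. ER chaperones (18 of 32 lower, median -0.014), NF-kappa-B targets (10 of 23, 0.006), p53 targets (15 of 26, -0.027) and interferon-stimulated genes (20 of 36, -0.022) lay close to the value of all clusters.

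The labelled cell line was checked with its markers. NEFL and NEFM, neurofilament genes that HEK293 cells are known to express, averaged 12.83 and 12.88 in RHOXF1 arrays, in the bright part of the array; they are the brightest of the listed markers and were picked after the values were seen. Of 21 HEK293 markers measured, 9 lay above the median level of all named clusters and 12 below it. Their mean level was 7.402 to 7.497 in RHOXF1 arrays, against 7.432 to 7.503 in RHOXF2 arrays and 7.387 to 7.473 in control arrays. The mean level of 23 markers of blood, vessel, connective tissue, muscle, liver and skin cells was 5.95 to 6.01 in RHOXF1 arrays, against 5.96 to 5.99 in RHOXF2 arrays and 5.88 to 5.98 in control arrays, below the median of all clusters; CD68, of macrophages, was the brightest of them at 8.24. PTPRC, of white blood cells, and DCN, of fibroblasts, lay at 3.62 and 3.65 in RHOXF1 arrays. Of the 23, 12 were lower and 11 higher in RHOXF1 cells, and none passed.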

How the data were processed

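RNA of 18 cultures was measured on 1 Affymetrix array each, the Human Gene ST array, version 1.0, per the sample descriptions; the series text names an exon array. The values deposited by the authors are log2 expression values per transcript cluster, made by RMA in Affymetrix Expression Console 3.1 per the submitters' processing notes. RMA equalises the arrays' distributions, which can hide a shift of all genes. The genome build is not given in the sources used here. Symbols came from the platform annotation: 19460 clusters had 1 symbol, 1754 several and 12083 none. They were updated to RefSeq symbols through their Entrez gene identifiers, of which 20133 of 20174 were found in RefSeq.

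limma 3.58.1 (lmFit and eBayes, R 4.3.3) gave every cluster 1 mean per group over 18 arrays, with 12 residual and 6.5 prior degrees of freedom. Tests were two-sided, adjusted by Benjamini-Hochberg at 0.05, with no filter and no array left out. The median SE of a difference at 48 h was 0.103; the number of arrays limits the precision.

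Genes were named by a rule: the transfected genes, the 10 smallest p in each direction at 48 h among single-symbol clusters, up to 3 per gene list, every chaperone, up to 3 per direction at 24 h and for the difference between times, and clusters of near-identical genes that passed. CCN1, CCN2, SNAI1 at 24 h, NEFL, NEFM, PTPRC, CD68 and DCN were named after their values were seen. The members and the 45 lists were chosen with earlier results of these data known. Residuals of same-numbered RHOXF1 and RHOXF2 arrays correlated at 0.238, 0.244 and -0.087 at 48 h and at 0.519, 0.062 and 0.134 at 24 h. Those of differently numbered arrays correlated at -0.378 to 0.213 at 48 h and at -0.372 to 0.262 at 24 h. On the second principal component of the 6 arrays (23.1% of the variance), RHOXF1 and RHOXF2 arrays lay at 6.5 and 8.1 for replicate 1. They lay at -13.2 and -13.5 for replicate 2 and at 3.4 and 8.7 for replicate 3. The labels do not name pairs, so the main fit did not pair the arrays, and a fit with the number as a block is given below. Alternatives covered the arrays fitted, normalization, clusters tested, variance model, array weights, a replicate block and leaving out each array. The fit was tested on simulated data.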

Additional observations from a re-analysis of the deposited data

How the results depend on the processing

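At 48 h, 11 clusters passed. The count was 6 with only the 6 compared arrays fitted, 5 with the 9 arrays of 48 h, 5 with all clusters tested and 4 with single-symbol clusters only, which leave out HSPA1A and RHOXF2. Elsewhere it was 11 (repeated quantile normalization, cyclic loess, intensity trend, robust variance), 12 (median centring), 8 (clusters above the median level) and 14 (array weights). Leaving out 1 array gave 4 to 12, with 5 without RHOXF1 replicate 2 or 3, and 4 without RHOXF2 replicate 2. At 24 h the count was 3, except 1 with single-symbol clusters, and 3 to 5 when 1 array was left out, with 5 without RHOXF1 replicate 1. The difference between the times gave 0, and 1 with median centring, single-symbol clusters or array weights. It gave 0 to 1 when 1 array was left out, and could not be fitted on arrays of 1 time.

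With the replicate number as a block, 12 clusters passed at 48 h, of which 10 were shared with the 11, against 3 at 24 h and 1 in the difference between the times. KRTAP19-5 was lost (adjusted p = 0.0635), and HSPA6 (0.0318) and HSPH1 (0.0405) were gained. The labels do not say that the numbers pair the arrays.

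RHOXF1, RHOXF2 and ANKRD1 passed under every alternative in which they were tested. GCM1 was lost without RHOXF2 replicate 2 (adjusted p = 0.0554), where it was tested. The HSPA1A clusters were lost on 6 arrays (0.103 to 0.168), on 9 arrays (0.141 to 0.156) and over all clusters (0.0521 to 0.0568), and KRTAP19-5 on 9 arrays (0.141) and over all clusters (0.0543). HSPA6 also passed with median centring (0.0365) and array weights (0.0023), with which HSPH1 (0.0217) and RFPL4A (0.0329) passed too, and BAG3 passed without RHOXF2 replicate 1 (0.0253). HSPA8, at -0.0355 to 0.0130 when 1 array was left out, turned to 0.0130 without RHOXF1 replicate 1, 0.0118 without RHOXF2 replicate 2 and 0.0044 without RHOXF2 replicate 3. Median centring moved the median of all clusters to -0.0404, with 13799 of 21214 lower. The cause of these changes was not tested, apart from the fewer arrays or clusters that a setting holds.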
